A study of Homo sapiens with 19 samples.

Results

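The data describe 7 genes of the response to low oxygen, ADM, HK2, SLC2A1, LOXL2, VEGFA, CA9 and NDRG1, in human MDA-MB-231 cells, a triple-negative breast cancer line. The genes were taken by name and found by their RefSeq positions on GRCh38, and all 7 were present among 19974 protein-coding genes of the autosomes and chromosome X. Their surroundings were read from 3 of the authors' lists of regions: superenhancers, which are broad stretches of dense H3K27 acetylation, in 2 cell populations, and binding regions (peaks) of the transcription factor OCT-2 in 1 of them. A region was counted at a gene when it met the gene body extended by 10, 50 or 200 kb on each side. The 7 genes and the lists of further genes were chosen with earlier results of these data known, so their shares are descriptions and no test was made on them.

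The cells compared were 231Pa_Luc+OCT-2, the parental line carrying luciferase and forced POU2F2 (the gene of OCT-2), and 231Pa_Luc+GFP, the same parent carrying luciferase and GFP. Both populations are polyclonal with stable transgenes, per the labels, while the promoter behind the transgenes is not stated there. They were cultured in serum-containing medium in a carbon dioxide incubator, and the labels name no low-oxygen treatment. H3K27ac was precipitated in both populations and, of these 2, OCT-2 in 231Pa_Luc+OCT-2 alone. Each had 2 replicates, which makes 3 pairs of libraries among the 19 samples of the series. The labels list no input library for either population. Each list was made from both replicates and holds positions without counts or scores. The depth and the spread between replicates are therefore unknown, and a gene off a list may lie just under the authors' threshold.

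The lists held 518 superenhancers for 231Pa_Luc+OCT-2, with a median width of 84.9 kb, and 337 for 231Pa_Luc+GFP, with a median of 105 kb. The OCT-2 list held 5736 peaks on these chromosomes, of 267 bp at the median. As a label check, 6 genes were taken as markers of basal or mesenchymal breast cancer cells (VIM, CD44, AXL, EGFR, KRT7 and KRT81). They were chosen with earlier results of these data known. All 6 lay within 10 kb of a superenhancer in 231Pa_Luc+OCT-2, against 5.76% of protein-coding genes. In 231Pa_Luc+GFP 5 of 6 did so, KRT81 being the exception, against 4.33% of protein-coding genes. None of 9 luminal markers, 3 fibroblast markers or 4 leukocyte markers did so in either population, and of 3 endothelial markers 0 did so in 231Pa_Luc+OCT-2 and 1 (PECAM1) in 231Pa_Luc+GFP.

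Cells short of oxygen stabilise the α subunits of the hypoxia-inducible factors (HIF), which pair with ARNT and bind DNA at hypoxia response elements with the core ACGTG or GCGTG. The genes they switch on raise glucose uptake and glycolysis, call in blood vessels, remodel the matrix and export acid, and in breast cancer this programme is known for its link to invasion and spread. OCT-2 is a POU-domain factor best known from B lymphocytes, and its classical binding site is the octamer ATGCAAAT.

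RefSeq promoter windows on GRCh38.p14 were matched for 4 of the 7 genes, and the 250 bases before the annotated start are shown for the comparison of 3 promoters that lay inside a superenhancer of 231Pa_Luc+OCT-2 (SLC2A1, HK2 and ADM) with 1 that lay in none (CA9). For HK2 the window of the outermost annotated start is given. They lie at chr1:42958869-42959118 (minus strand) for SLC2A1, chr2:74833877-74834126 (plus) for HK2, chr11:10304823-10305072 (plus) for ADM and chr9:35673678-35673927 (plus) for CA9, and capitals mark ACGTG or GCGTG on either strand.
SLC2A1: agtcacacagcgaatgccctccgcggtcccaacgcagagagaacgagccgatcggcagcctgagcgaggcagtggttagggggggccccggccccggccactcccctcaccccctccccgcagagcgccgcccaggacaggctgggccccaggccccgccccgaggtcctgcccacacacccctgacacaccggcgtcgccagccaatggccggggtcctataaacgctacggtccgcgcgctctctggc
HK2: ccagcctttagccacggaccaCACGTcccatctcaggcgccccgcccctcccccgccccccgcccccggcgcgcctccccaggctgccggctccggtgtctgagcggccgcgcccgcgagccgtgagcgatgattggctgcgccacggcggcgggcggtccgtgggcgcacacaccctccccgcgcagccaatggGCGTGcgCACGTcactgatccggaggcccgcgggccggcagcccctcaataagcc
ADM: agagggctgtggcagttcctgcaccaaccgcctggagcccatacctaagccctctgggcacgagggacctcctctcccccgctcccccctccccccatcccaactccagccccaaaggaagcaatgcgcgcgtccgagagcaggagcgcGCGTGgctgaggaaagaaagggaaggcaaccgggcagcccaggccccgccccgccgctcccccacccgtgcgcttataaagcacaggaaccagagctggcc
CA9: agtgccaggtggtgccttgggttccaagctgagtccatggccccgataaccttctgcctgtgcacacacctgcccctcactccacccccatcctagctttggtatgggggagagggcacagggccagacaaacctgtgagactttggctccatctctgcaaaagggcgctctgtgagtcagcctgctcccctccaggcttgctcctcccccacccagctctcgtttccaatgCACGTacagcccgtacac

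The HK2 window held 3 matches to the HIF core, which begin 229, 55 and 48 bases before the start. The window of a further HK2 start (74834920 to 74835169, not shown) also lay inside the superenhancer. Over both strands it held 4 matches to ACGTG and 2 to GCGTG. The 4 matches to ACGTG lay in 2 CACGTG sites, each matched once on each strand. The ADM window held 1, a GCGTG that begins 101 bases before the start, and the CA9 window held 1, which begins 18 bases before the start. The SLC2A1 window held none. Over 22156 promoter windows of 15813 protein-coding genes, 49.3% held ACGTG or GCGTG on either strand, 20.2% held ACGTG and 38.2% held GCGTG, so a match is common. The octamer ATGCAAAT was in none of the 4 windows on either strand and in 1.59% of all windows. The G and C content was 72.4% for SLC2A1, 76.8% for HK2, 68.0% for ADM and 60.4% for CA9, against a median of 62.0% over all windows. Among the windows shown, the core was present in 2 of the 3 inside a superenhancer and in the 1 outside. No base of an OCT-2 peak lay in any of the 4 windows: the peak nearest to the start was 1.89 kb away at HK2, 5.44 kb at SLC2A1, 15.6 kb at CA9 and 22.2 kb at ADM.

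Of the 7 genes, 4 had a superenhancer within 10 kb in 231Pa_Luc+OCT-2 (57.1%), against 5.76% of all protein-coding genes, and 2 had one in 231Pa_Luc+GFP (28.6%), against 4.33%. The 2 at a superenhancer in both populations were SLC2A1 and LOXL2, a state found for 3.74% of protein-coding genes. ADM and HK2 were at a superenhancer of 231Pa_Luc+OCT-2 alone, a state found for 2.02%. VEGFA, CA9 and NDRG1 were at none. An OCT-2 peak lay within 10 kb of HK2, SLC2A1 and LOXL2, 3 of 7 (42.9%), against 15.6% of protein-coding genes. These 3 had both a superenhancer of 231Pa_Luc+OCT-2 and a peak within 10 kb, as did 2.29% of protein-coding genes. The peak at LOXL2 was 238 bp wide, the least in the list, and those at SLC2A1 were 239 and 243 bp. The median over all peaks was 267 bp, and only HK2 had a wider one, of 393 bp.

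**Figure D1:**
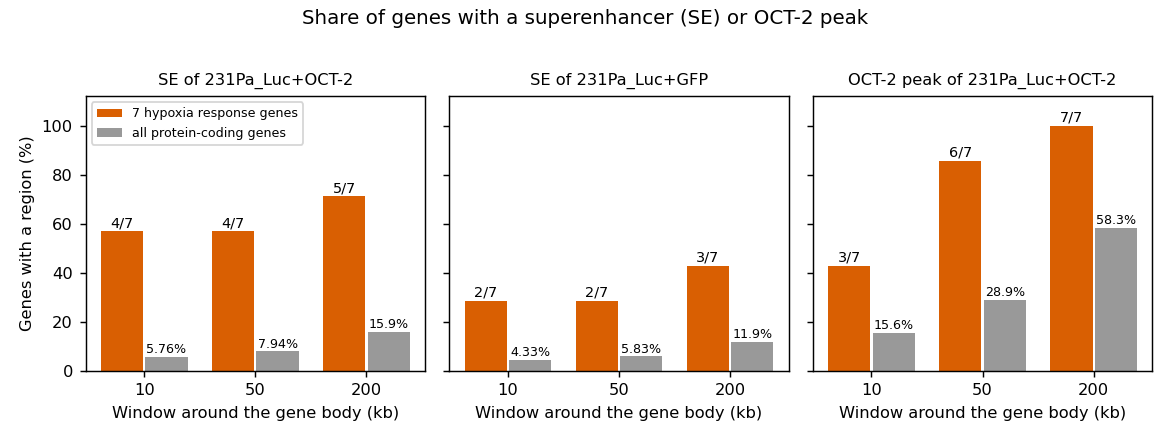
Percentage of genes with a region within 10, 50 or 200 kb of the gene body, for the 7 hypoxia response genes (orange, with their number of 7) and for all 19974 protein-coding genes (grey), in each of the 3 lists. The share of protein-coding genes rises with each window. That of the 7 genes is equal at 10 and 50 kb for superenhancers and higher at 200 kb. OCT-2 peaks reach 7 of 7 genes and 58.3% of protein-coding genes at 200 kb.

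Within 50 kb the superenhancer counts were the same, 4 of 7 in 231Pa_Luc+OCT-2 (7.94% of protein-coding genes) and 2 of 7 in 231Pa_Luc+GFP (5.83%), while 6 of 7 genes had an OCT-2 peak (28.9%). Within 200 kb, 5 of 7 had a superenhancer in 231Pa_Luc+OCT-2 (15.9% of protein-coding genes), 3 of 7 in 231Pa_Luc+GFP (11.9%), and all 7 had a peak (58.3%). By the nearest peak, LOXL2 (6.62 kb) was the last gene inside the limit of 10 kb and VEGFA (10.7 kb) the first outside it. ADM (19.9 kb) was the last inside 50 kb and NDRG1 (54.4 kb) the first outside it.

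**Figure D2:**
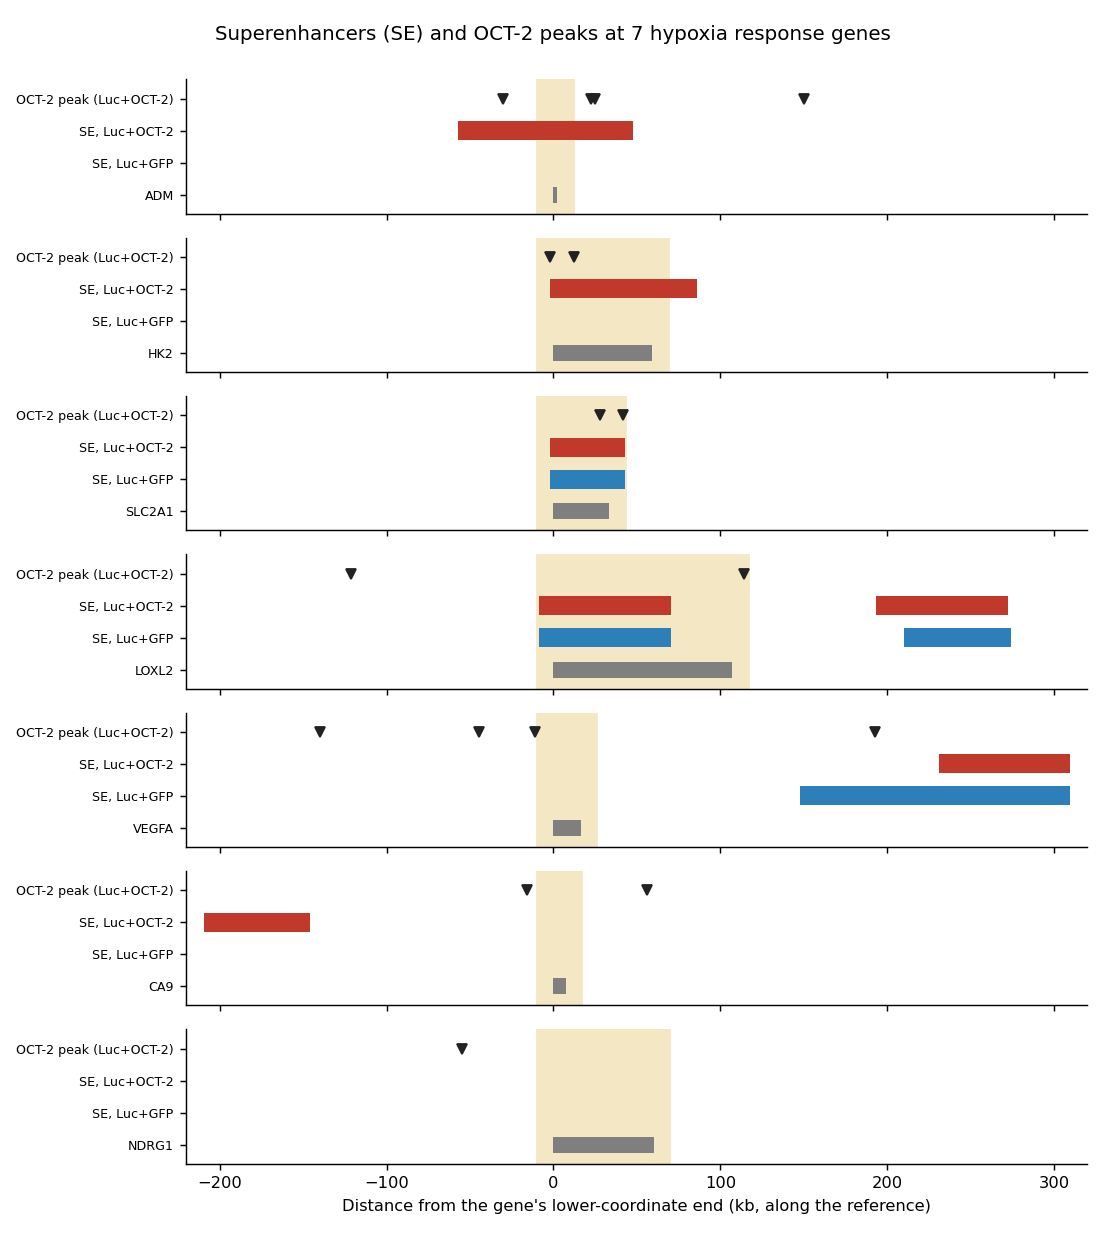
Each panel shows 1 gene (grey bar) with the superenhancers (SE) of 231Pa_Luc+OCT-2 (red) and 231Pa_Luc+GFP (blue) with peaks of OCT-2 binding (231Pa_Luc+OCT-2 cells) within 200 kb of the gene as triangles, by distance in kb from the gene's lower-coordinate end; the shaded band is the gene body with 10 kb on each side. Superenhancers lie over ADM and HK2 in red alone, and over SLC2A1 and LOXL2 in both colours.

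SLC2A1 and HK2, which act in glucose uptake and use, were each at a superenhancer of 231Pa_Luc+OCT-2 that held OCT-2 peaks. SLC2A1 encodes the glucose transporter GLUT1 (chromosome 1, 42925353 to 42958868, minus strand). Its superenhancer spanned 42923235 to 42968255 in 231Pa_Luc+OCT-2 (45.0 kb) and 42923042 to 42968270 in 231Pa_Luc+GFP (45.2 kb), and held the whole gene in both. The 2 calls differed by 193 bp at the lower end and by 15 bp at the upper end. Over the 297 superenhancers that paired 1 to 1 between the populations, the larger of the 2 end differences had a median of 2448 bp, and 17.2% of pairs were as close as that of SLC2A1. The region was narrow for both lists, ranking 443 of 518 by width in 231Pa_Luc+OCT-2 and 314 of 337 in 231Pa_Luc+GFP. With only the 337 widest superenhancers of 231Pa_Luc+OCT-2, SLC2A1 was at none of them.

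It held 2 OCT-2 peaks, 1 inside the gene body (42953191 to 42953429) and 1 at 42967109 to 42967351, in the divergent noncoding gene SLC2A1-DT and 8.24 kb upstream of the start of SLC2A1. Of all superenhancers of 231Pa_Luc+OCT-2, 47.3% held 2 or more peaks, and 3.64% of protein-coding genes had 2 or more within 10 kb. OCT-2 was not precipitated in 231Pa_Luc+GFP, so it is not known whether these sites are bound in those cells. The series also holds OCT-2 libraries of 231-D cells (2 replicates), and their binding was not compared here.

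HK2 encodes hexokinase 2, which commits glucose to metabolism by phosphorylating it (chromosome 2, 74834127 to 74893359). In 231Pa_Luc+OCT-2 a superenhancer of 88.2 kb (74832034 to 74920192) held the whole gene and no other protein-coding gene. It ranked 242 of 518 by width, and 72 among the 204 superenhancers of these cells that met none of 231Pa_Luc+GFP. In 231Pa_Luc+GFP the nearest superenhancer lay 5.89 Mb away, and 68.0% of protein-coding genes had one as near. HK2 also had 2 peaks within 10 kb. The first (74831994 to 74832239) straddled the lower edge of the superenhancer 1888 bp before the gene, and the second (74845966 to 74846358) lay in the gene body and was the widest of the 17 peaks within 200 kb of the 7 genes, at 393 bp. HK2 and SLC2A1 thus each had 2 peaks at the superenhancer, 1 of them in the gene body, and differed in the 231Pa_Luc+GFP list.

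ADM and VEGFA, which encode secreted signals to blood vessels, had no peak within 10 kb. ADM encodes adrenomedullin, a peptide that widens vessels and promotes their growth (chromosome 11, 10305073 to 10307397). It lay wholly in a superenhancer of 231Pa_Luc+OCT-2 (10247814 to 10352695, 105 kb), as did 3.12% of protein-coding genes in superenhancers of these cells, and the nearest one in 231Pa_Luc+GFP was 1.67 Mb away. The region ranked 183 of 518 by width and 52 among the 204 regions that met none of 231Pa_Luc+GFP, and it also overlapped SBF2. Its middle lay in SBF2, so ADM was not the nearest protein-coding gene by that measure.

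The superenhancer at ADM held 3 OCT-2 peaks, as 3 or more were found in 12.3% of the 204 regions of 231Pa_Luc+OCT-2 alone and in 24.7% of all 518. The first peak (10274831 to 10275070) lay 30.0 kb before ADM in SBF2. The other 2 (10327294 to 10327565 and 10329940 to 10330179) lay 19.9 and 22.5 kb beyond the gene in the noncoding gene CAND1.11. As many as 3 peaks within 50 kb were found for 2.76% of protein-coding genes. A further peak 148 kb away lay in AMPD3, which makes 4 within 200 kb, a number reached by 7.71% of protein-coding genes.

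VEGFA encodes vascular endothelial growth factor A, the main signal for new vessels (chromosome 6, 43770211 to 43786487). Within 50 kb it had no superenhancer in either population. The nearest in 231Pa_Luc+OCT-2 (44001142 to 44079627, 78.5 kb) was 215 kb away, and the nearest in 231Pa_Luc+GFP (43917738 to 44079654, 162 kb) was 131 kb away. These are calls of 1 locus that overlap each other, and the call in 231Pa_Luc+GFP reaches closer to VEGFA. Its entry as a gene at a superenhancer of 231Pa_Luc+GFP alone within 200 kb therefore rests on where that call ends. The 231Pa_Luc+OCT-2 call held 4 OCT-2 peaks and the 231Pa_Luc+GFP call held 6, and the nearest protein-coding gene of the wider call was MRPL14.

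Like ADM, VEGFA had 4 peaks within 200 kb. The nearest (43759251 to 43759489) lay 10.7 kb from the gene and 1 lay 44.7 kb away (43725205 to 43725533), both on the lower-coordinate side and outside superenhancers. Another 140 kb away met GTPBP2 and MAD2L1BP. The fourth, 176 kb away on the other side (43962545 to 43962813), lay in the part of the locus called in 231Pa_Luc+GFP alone.

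LOXL2 encodes a lysyl oxidase-like enzyme that crosslinks collagen and elastin (chromosome 8, 23296897 to 23404120). At 107 kb it is the longest of the 7 genes, and its superenhancer covered 65.5% of the gene body in both populations. The calls spanned 23287944 to 23367177 in 231Pa_Luc+OCT-2 (79.2 kb, rank 289 of 518) and 23288068 to 23367161 in 231Pa_Luc+GFP (79.1 kb, rank 239 of 337), and also met R3HCC1. Their ends differed by 124 and 16 bp, as close as in 10.1% of the 297 pairs. No OCT-2 peak lay inside, whereas 78.4% of the superenhancers of 231Pa_Luc+OCT-2 held at least 1. The nearest peak (23410740 to 23410977) lay 6.62 kb beyond the higher-coordinate end of the gene, on the side that the superenhancer left uncovered.

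A second superenhancer of both populations lay on the same side, over SLC25A37, 86.0 kb from LOXL2 in 231Pa_Luc+OCT-2 (79.0 kb wide) and 103 kb from it in 231Pa_Luc+GFP (64.4 kb wide). It held no peak either. The only other peak within 200 kb was 121 kb from LOXL2 on the lower-coordinate side, nearest to TNFRSF10D.

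**Figure D3:**
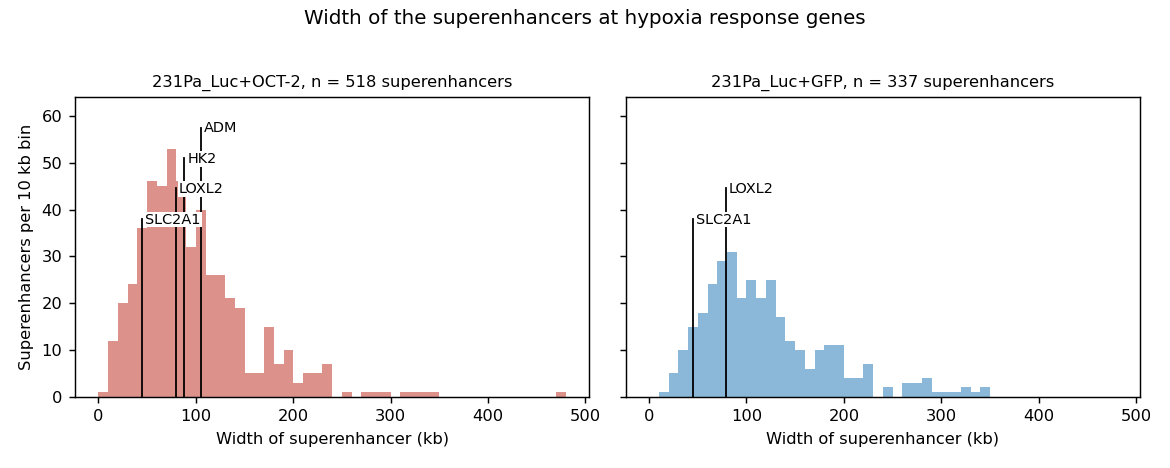
Number of superenhancers per 10 kb of width in 231Pa_Luc+OCT-2 (left, 518) and 231Pa_Luc+GFP (right, 337), with vertical lines at the widths of those that overlap a hypoxia response gene (line height has no meaning). SLC2A1 stands among the narrow superenhancers of both lists, and in 231Pa_Luc+OCT-2 HK2 and ADM are wider than the median of 84.9 kb.

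CA9 encodes carbonic anhydrase IX, a membrane enzyme that helps to keep pH in acid tumours and is a widely used marker of hypoxia (chromosome 9, 35673928 to 35681159). It had no superenhancer within 50 kb in either population. The nearest in 231Pa_Luc+OCT-2 (35464294 to 35527737, 63.4 kb) was 146 kb away over RUSC2, held no OCT-2 peak and met no superenhancer of 231Pa_Luc+GFP, where the nearest was 2.22 Mb away. CA9 had 2 peaks within 50 kb, and both lay at other genes. The nearer (35658010 to 35658294), 15.6 kb away, met RMRP, the RNA of the RNase MRP complex, and CCDC107. The other (35729914 to 35730162), 48.8 kb away, lay in TLN1.

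NDRG1, a stress-induced gene linked to differentiation and to the restraint of metastasis (chromosome 8, 133237175 to 133297252), had the least around it. The nearest superenhancer was 2.92 Mb away in 231Pa_Luc+OCT-2 and 2.91 Mb away in 231Pa_Luc+GFP. The single peak within 200 kb (133182496 to 133182788) lay 54.4 kb away and was nearer to CCN4. The states of NDRG1 in the 3 lists at the 3 windows were those of 22.7% of protein-coding genes, whereas those of HK2 were shared by 0.716%, of ADM by 0.421%, of CA9 by 0.466%, of VEGFA by 0.155%, and those of SLC2A1 and LOXL2, which are alike, by 1.41%.

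Ordered by the distance from the gene body to the nearest OCT-2 peak, HK2 and SLC2A1 came first with a peak in the gene body, followed by LOXL2 (6.62 kb), VEGFA (10.7 kb), CA9 (15.6 kb), ADM (19.9 kb) and NDRG1 (54.4 kb). The median was 10.7 kb for the 7 genes and 145 kb for all protein-coding genes. Of all protein-coding genes, 10.8% had a peak in the gene body, 19.2% had one as near as ADM and 30.1% had one as near as NDRG1. The median number of peaks within 200 kb was 2 for the 7 genes and 1 for all. The 17 peaks within 200 kb of the 7 genes were 238 to 393 bp wide, and 7 of them (41.2%) lay in a superenhancer of 231Pa_Luc+OCT-2, against 15.8% of all peaks. Those in superenhancers were the 3 at ADM, 2 at HK2 and 2 at SLC2A1. These genes were already counted at a superenhancer, so the share is not a separate result. The 15.8% covers peaks at any distance from a gene. Longer genes offer more bases to be met by a region, and the median gene length was 33.5 kb for the 7 genes and 24.2 kb for all.

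**Figure D4:**
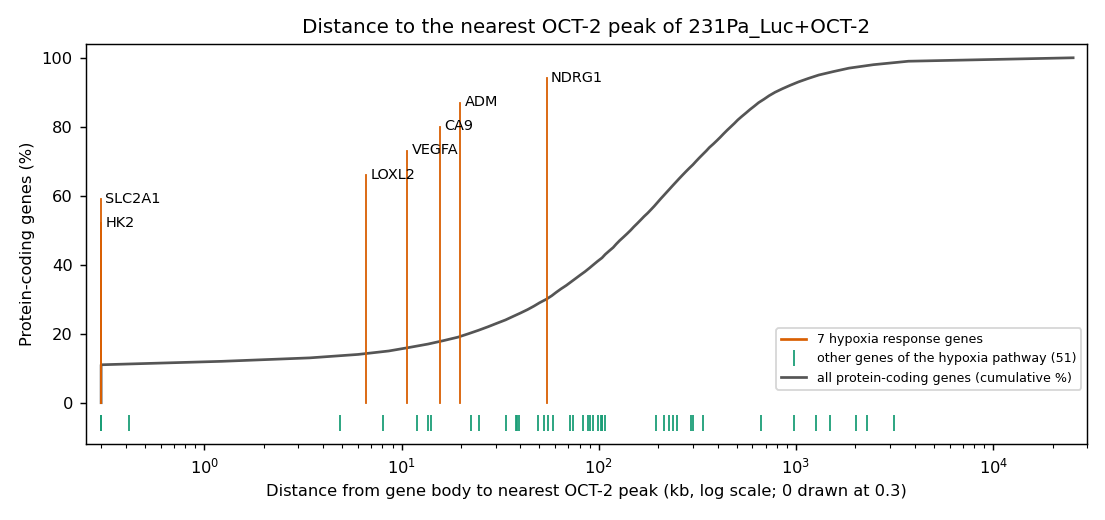
Distance in kb (log axis, with 0 drawn at 0.3) from the gene body to the nearest peak of OCT-2 in 231Pa_Luc+OCT-2 cells, for the 7 hypoxia response genes (orange lines, height has no meaning), 51 other genes of the pathway (green ticks) and, as the cumulative percentage on the y axis, all protein-coding genes (grey curve). The 7 genes lie between 0 and 54.4 kb, to the left of the median of 145 kb over all protein-coding genes.

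In a longer list of 51 other genes of the hypoxia pathway the shares lay closer to those of all protein-coding genes. A superenhancer within 10 kb was found for 6 of 51 in 231Pa_Luc+OCT-2 (11.8%, against 5.76% of protein-coding genes). In 231Pa_Luc+GFP one was found for 5 of 51 (9.8%, against 4.33%). An OCT-2 peak within 10 kb was found for 12 of 51 (23.5%, against 15.6%). The nearest peak was at a median of 71.2 kb. Of the 10 genes of the HIF machinery, HIF1A, which encodes the oxygen-regulated HIF-1α, was at a superenhancer of 231Pa_Luc+OCT-2 alone (chromosome 14, 61653018 to 61766508, 113 kb, 1 peak inside), and ARNT2, which encodes a partner of HIF-α, at one of 231Pa_Luc+GFP alone (chromosome 15, 80403978 to 80600879, 197 kb, 1 peak inside). For HIF1A the nearest superenhancer of 231Pa_Luc+GFP was 69.7 kb from the gene. The oxygen-sensing hydroxylase genes EGLN1, EGLN2, EGLN3 and HIF1AN and the gene of the ubiquitin ligase subunit VHL had neither a superenhancer nor a peak within 10 kb.

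Of 14 genes of glucose and lactate handling, ENO1 (enolase) and SLC16A3 (the lactate exporter MCT4) were at superenhancers of both populations, and PFKFB3, PFKFB4 and PKM had a peak within 10 kb. The call at ENO1 was 55.3 kb wide in 231Pa_Luc+OCT-2 and 133 kb in 231Pa_Luc+GFP. Of 8 matrix genes, LOXL1 was at superenhancers of both populations with 3 peaks inside, and P4HA1 was among those with a peak within 10 kb. CA12, which encodes another membrane carbonic anhydrase, had a peak in the gene body and no superenhancer within 10 kb. Of 17 other targets, DDIT4, an inhibitor of mTOR signalling, was at superenhancers of both populations. STC2, which encodes stanniocalcin 2, was at one of 231Pa_Luc+OCT-2 alone (45.2 kb, 1 peak inside). For STC2 the nearest superenhancer of 231Pa_Luc+GFP was 101 kb from the gene. KDM3A, TFRC and ANGPTL4 had a peak within 10 kb.

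The pathway genes most like each of the 7 were found by the number of equal yes-or-no states among 9, the 3 lists at 3 windows. LOXL1 equalled SLC2A1 and LOXL2 in 9 of 9, and ENO1 in 8. HIF1A and STC2 equalled ADM in 8 and HK2 in 7. PDK1 equalled CA9 in 9. VEGFA had 5 pathway genes equal in 8, namely BHLHE40, BNIP3L, EPAS1, GPI and HIF1AN. NDRG1 had 11 of 51 genes equal in all 9, since it had only the distant peak.

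Of the 13 paralogs compared, LOX, LOXL1, LOXL3, LOXL4, HK1, SLC2A3, CA12 and PGF are also counted among the 51 other pathway genes. LOXL1 and VEGFB, 2 of the 13 paralogs, were at a superenhancer within 10 kb, both in both populations. That is 15.4% in each, against 5.76% of protein-coding genes in 231Pa_Luc+OCT-2 and 4.33% in 231Pa_Luc+GFP. CA12 and LOXL1 had an OCT-2 peak within 10 kb, 15.4% of the paralogs against 15.6% of protein-coding genes. VEGFB lay in a superenhancer of 195 kb in each, with 1 peak inside and its own nearest peak 78.3 kb from the gene. HK1, SLC2A3, LOX, LOXL3, LOXL4, VEGFC, PGF, NDRG2, NDRG3 and NDRG4 had neither a superenhancer nor a peak within 10 kb. For HK1 the nearest superenhancer was 399 kb away in both populations and the nearest peak 52.6 kb away, against 0 kb for the peak at HK2. For SLC2A3, which encodes GLUT3, the nearest peak was 974 kb away, against 0 kb for SLC2A1. CA12 and LOXL1 went the other way, at 0 kb, against 15.6 kb for CA9 and 6.62 kb for LOXL2. The median over all protein-coding genes was 145 kb.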

How the data were processed

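H3K27ac and OCT-2 ChIP-seq was made in MDA-MB-231 derivatives. Bedtools, HOMER, Bowtie and Bowtie2 are listed, per the submitters' processing notes, with hg19 and hg38. Calling thresholds were not stated. The 3 lists used are deposited intervals in hg38, per their names, each merged by the authors from 2 or 3 calls of both replicates; they hold start, end and a name, with no count, score or signal. The lists in hg19 were not used here, since no hg19 gene table was at hand and no coordinates were converted.

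Of 5741 OCT-2 peaks, 5 on unplaced contigs were left out. Gene bodies came from the RefSeq table of GRCh38.p14. A region was counted at a gene with an overlap of 1 bp with the body extended by 10 kb (50 and 200 kb also given), and superenhancers of both populations were called shared with 1 bp. Motifs were searched on both strands of the 250 bases before RefSeq starts. Coordinates are 1-based. No test was made, because 1 list a group leaves no spread. The 7 genes, the pathway, paralog and marker lists and the naming rule (all members, pathway genes within 10 kb of a region, the most alike pathway genes, genes overlapped by or nearest to a named region) were chosen with earlier results of these data known. Some pathway genes are counted but not reported here by name. The counting was tested on simulated data. Python 3.11.15, numpy 2.4.6, pandas 2.3.3 and matplotlib 3.10.9 were used.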

Additional observations from a re-analysis of the deposited data

How the results depend on the processing

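The 4 counts over the 7 genes were recomputed under 9 settings, 26 values in all, of which 21 were within 1.5 times the value reported. With a peak within 50 kb the count of genes with an OCT-2 peak was 6, and within 200 kb it was 7, against 3 within 10 kb; with only peaks of at least the median width it was 1 (HK2). The genes whose superenhancer state differed between 231Pa_Luc+OCT-2 and 231Pa_Luc+GFP were 4 within 200 kb, against 2 within 10 kb, with VEGFA and CA9 added. When a gene counted only as the nearest to the middle of a superenhancer, 1 remained (HK2), since the middle of the region at ADM lay in SBF2. With only the 337 widest superenhancers of 231Pa_Luc+OCT-2 they were 3, with SLC2A1 added. Leaving out each replicate and a replicate block were not run. No paired analysis was possible because the lists hold no value per replicate. The depth is unknown, so absence from a list cannot be told apart from a signal under the threshold.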
